A study of Mus musculus with 81 samples.

Results

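The cytosolic ribosomal protein genes were followed in mouse heart: every gene whose symbol is Rpl or Rps plus a number, with an optional letter or copy suffix, in the array's probe-gene table. Genes entered by name alone, though the family was chosen with earlier results of these data known. The probe set with the highest mean stands for each gene. It gave 62 genes with a probe set of their own among 22180 genes measured, 39 for proteins of the large subunit and 23 for the small one. A further 13 such symbols, among them Rpl10, Rpl12, Rpl13a and Rps2, shared every probe set with another gene and were not analysed here.

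Transcript levels were measured on 81 Affymetrix arrays in whole hearts of male mice aged 29 weeks and fasted overnight, from C57BL/6J, DBA/2J and the BXD strains, which are inbred lines bred from those parents. RNA of about 5 animals sharing strain and diet was pooled for an array. There were 42 such pools on chow and 39 on high fat, and 39 strains (37 BXD strains and both parents) had both. The labels name no engineered allele and do not say what the high fat diet was made of, and the spread between animals is hidden by the pooling. The feeding protocol in the labels mentions chow for every sample, which conflicts with the treatment label of the high fat pools, and the treatment label was followed. Values are scores on a log-like scale that is centred at 8 in every array with an SD of 2, so a unit equals 0.5 SD and does not stand for a known fold. A shift shared by most transcripts is removed by that scaling. All 10 cardiomyocyte markers measured had mean levels of 11.22 to 15.98 units, against a median of 8.18 over all genes. In whole tissue, fewer cells of a type and less RNA per cell cannot be told apart.

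The cytosolic ribosome makes the cell's proteins outside mitochondria. Its small subunit reads the messenger RNA, its large subunit joins the amino acids, and each holds ribosomal RNA wrapped by one copy of most ribosomal proteins, which are made in matched amounts. Their messenger RNAs usually begin with a C followed by a run of pyrimidines, the 5′ terminal oligopyrimidine (TOP) tract, through which the kinase mTOR controls their translation according to nutrient supply. Heart and skeletal muscle also make Rpl3l, a muscle form of Rpl3, and several other members have copies of like sequence.

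The start sites of members that lead the diet and correlation results are shown because a TOP tract is the sequence feature that this gene family is known for. Of the 62 members 48 had an entry in the RefSeq promoter table (GRCm38.p6), which holds 250 bases before and 50 after each annotated start. Capitals in the windows below mark the first match to a C followed by at least 4 bases, each C or T, that begins within 5 bases of the start. The capitals go as far as that tract runs inside the window. The search began 5 bases before the start, and the pyrimidine run of Rpl35 begins upstream of its capitals. The windows run 5′ to 3′ from 40 bases before the start through its first 20 transcribed bases. They lie at chr17:27635225-27635284 (minus strand, Rps10), chr3:90213629-90213688 (minus, Rps27), chr11:101442205-101442264 (plus, Rpl27), chr15:5116573-5116632 (plus, Rpl37), chr3:28805468-28805527 (plus, Rpl22l1), chrX:37085203-37085262 (minus, Rpl39), chr2:39005112-39005171 (minus, Rpl35) and chr11:114668540-114668599 (plus, Rpl38).
Rps10: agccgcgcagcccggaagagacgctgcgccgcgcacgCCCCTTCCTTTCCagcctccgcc
Rps27: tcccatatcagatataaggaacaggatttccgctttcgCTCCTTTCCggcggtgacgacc
Rpl27: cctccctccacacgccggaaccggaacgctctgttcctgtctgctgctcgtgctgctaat
Rpl37: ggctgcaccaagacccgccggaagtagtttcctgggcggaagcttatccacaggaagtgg
Rpl22l1: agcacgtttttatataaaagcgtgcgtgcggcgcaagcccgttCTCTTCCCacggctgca
Rpl39: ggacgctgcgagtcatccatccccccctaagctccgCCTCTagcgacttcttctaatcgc
Rpl35: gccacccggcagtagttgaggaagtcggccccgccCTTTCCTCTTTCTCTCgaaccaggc
Rpl38: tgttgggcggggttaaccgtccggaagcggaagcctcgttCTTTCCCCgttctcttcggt

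With the C at the first transcribed base itself, inside a tract that may begin further upstream, the pattern was found in 10 of the 48 members (20.8%), against 2.67% of 17492 protein-coding genes and 0 of 69 mitochondrial ribosomal protein genes. With the C within 5 bases of the start it was found in 21 members (43.8%), against 21.5% of protein-coding genes. The ETS-type motif CCGGAAG, searched on both strands over the whole 300 bases, was present in 20 members (41.7%), in 12.9% of protein-coding genes and in 37.7% of the mitochondrial ribosomal protein genes. The reverse complement of that motif can overlap a pyrimidine tract. Of the windows shown, those of Rpl27, which fell on high fat, and Rpl37, which rose, held no tract within 5 bases, which says only that these letters are absent there, and those of Rps12 and Rps19, not shown, held none either. Rps10 and Rps27, which also rose, held one, and so did Rpl22l1 and Rpl39, which fell.

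The first comparison asked which members differed between the diets within strains. Some members were higher on high fat and others lower, with 4 called differences above 0.2 units in size. Of 62 members 15 were higher, 7 were lower and 40 did not pass the test (adjusted p under 0.05, limma with strain as a block, Benjamini-Hochberg over all genes). With the mean of a gene's probe sets 13 were higher and 12 lower. Over all genes 45% were called, 23.8% higher and 21.2% lower, and the members' 35.5% called was below that background. The median difference over the members was -0.00305 units, beside 0.00526 over all genes, and the median size of a difference was 0.0627 units against 0.0841. Among the small subunit genes 7 of 23 were higher and 3 lower. Among the large subunit genes 8 of 39 were higher and 4 lower.

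**Figure D1:**
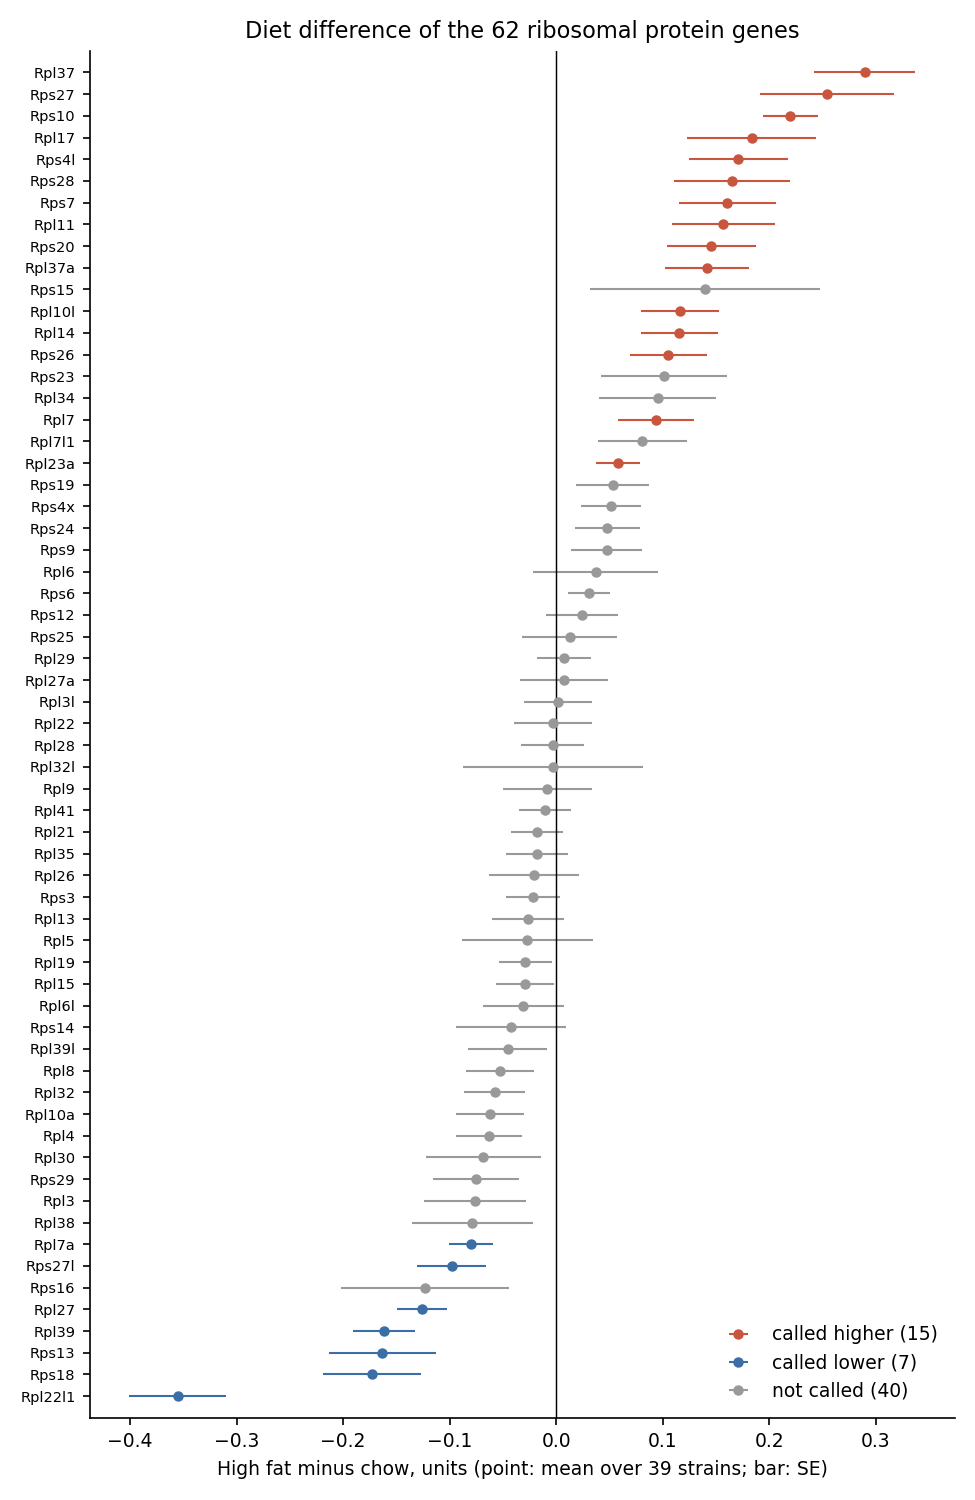
Diet difference of each of the 62 ribosomal protein genes, high fat minus chow in units, as the mean over 39 strains with its SE; colour marks genes called higher (15), lower (7) or not called (40). The differences run from -0.355 for Rpl22l1 to 0.290 for Rpl37, and most lie within 0.1 units of 0.

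Rps10, a small subunit protein near the path of the messenger RNA, showed the most regular rise. Its levels on chow ran from 9.08 to 9.53 with a median of 9.33, and on high fat from 9.24 to 9.86 with a median of 9.55. The ranges overlapped, yet within strains the high fat pool was the higher in 37 of 39. The difference was 0.220 ± 0.0257 units (SE, adjusted p = 3.03e-09, limma).

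Rpl37, a zinc-finger protein of the large subunit, had the largest rise. It went from 6.19, 6.55 and 7.19 (lowest, median, highest) on chow to 6.34, 6.85 and 7.24 on high fat, a difference of 0.290 ± 0.0475 that was positive in 31 of 39 strains (adjusted p = 3.16e-06, limma). Rps27, a zinc-finger protein of the small subunit, went from 7.07, 7.72 and 8.67 to 7.39, 8.03 and 8.65, a difference of 0.254 ± 0.0630 that was positive in 30 strains (adjusted p = 0.00101, limma). In both genes the ranges of the diets covered each other almost wholly, and the highest chow pools came close to or above the highest high fat pool. Both probe sets were dim, below the median gene.

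The other members with the largest rises were Rpl17, which lines the mouth of the exit tunnel (0.183 units, higher in 26 strains), Rps4l, a copy of Rps4x (0.171, higher in 31), Rps28 (0.165, higher in 29), Rps7 (0.161, higher in 28) and Rpl11 (0.157, higher in 25). Rpl11 is a partner of the 5S ribosomal RNA that can also bind the p53 regulator Mdm2, and its own partner there, Rpl5, differed by -0.0272 ± 0.0616 units (adjusted p = 0.746, limma). The remaining 7 that rose, Rps20, Rpl37a, Rpl10l, Rpl14, Rps26, Rpl7 and Rpl23a, differed by 0.0583 to 0.146 units. With the mean of probe sets Rps20, Rps26 and Rpl7 were not called, and Rpl7 was not called without the strain term or under quantile scaling either. The mean level of Rpl10l, 5.26 units, was below the 5.96 units that 92 ERCC control probe sets averaged. Of these 15, Rpl23a, Rpl7, Rpl14, Rps26 and Rps28 belonged to the brighter 31 members.

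The largest fall was that of Rpl22l1, a copy of Rpl22. Its levels were 5.57, 6.08 and 6.73 (lowest, median, highest) on chow and 5.23, 5.77 and 6.17 on high fat, with overlapping ranges. It fell by 0.355 ± 0.0453 units and was lower in 35 of 39 strains (adjusted p = 2.27e-08, limma). Rpl22 itself differed by -0.0029 ± 0.0363 units (adjusted p = 0.959, limma). The Rpl22l1 probe set is among the dimmest of the family, with a mean of 5.91 units, also below that of the ERCC control probe sets, whose targets are synthetic RNAs and no mouse transcripts.

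A pair of large subunit genes fell in nearly as many strains with small differences. Rpl27 went from 11.19, 11.38 and 11.61 on chow to 11.07, 11.25 and 11.55 on high fat, fell by 0.126 ± 0.0232 units and was lower in 32 strains (adjusted p = 2.16e-05, limma). Rpl39, a very small protein at the exit tunnel, went from 7.98, 8.30 and 8.62 to 7.78, 8.14 and 8.53, fell by 0.162 ± 0.0290 and was lower in 33 strains (adjusted p = 1.41e-05, limma). The diets overlapped over most of their range in both. The other falls were those of Rps18 (-0.173 units, lower in 27 strains) and Rps13 (-0.163, lower in 27), both of the small subunit, Rps27l (-0.0979, lower in 25), a copy of Rps27, and Rpl7a (-0.0801, lower in 30).

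**Figure D2:**
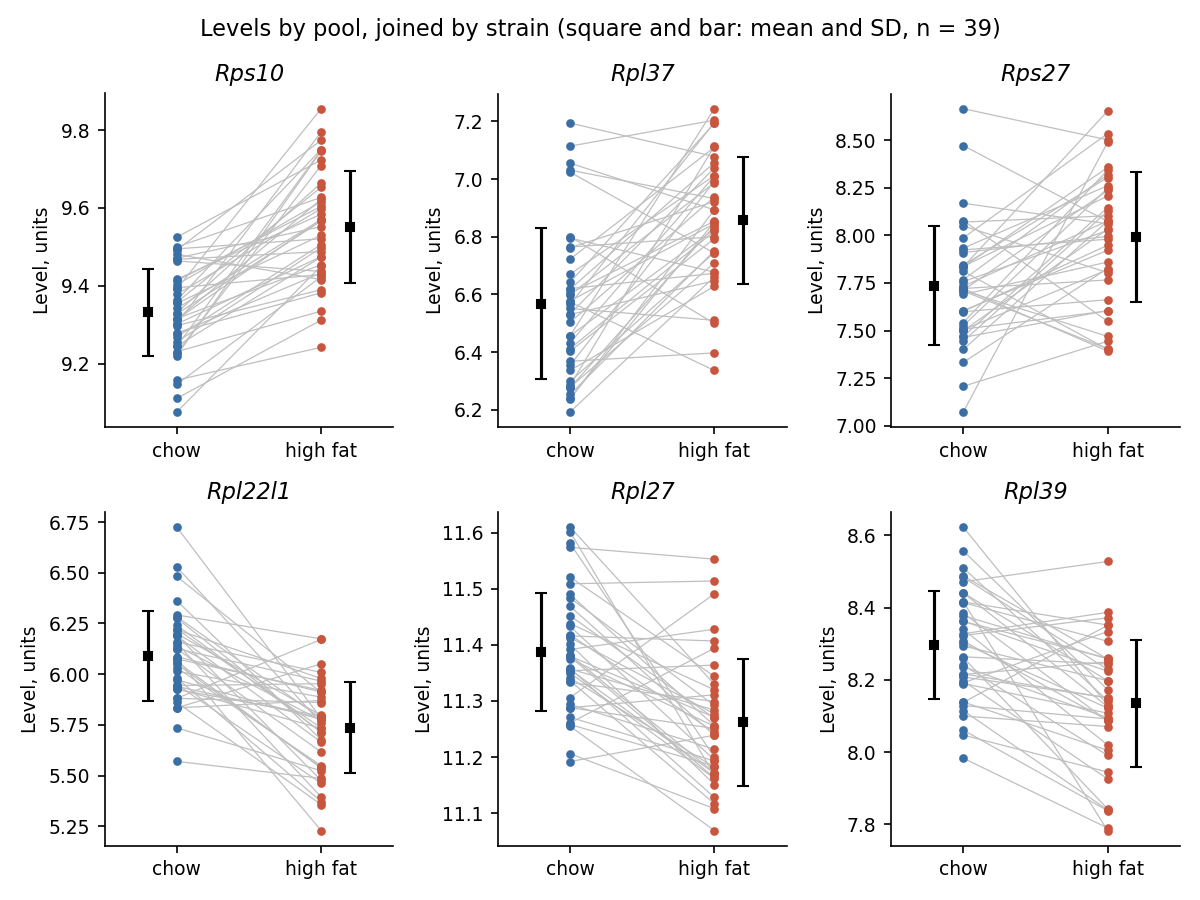
Levels of 6 members in units in each pool on chow (blue) and high fat (red), with lines joining the pools of a strain and squares with bars for the mean and SD of 39 strains. Rps10, Rpl37 and Rps27 lie higher on high fat and Rpl22l1, Rpl27 and Rpl39 lower, while the diets' ranges overlap in each panel.

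Control probe sets differed between the diets as well. Of the 92 ERCC probe sets 40.2% were called between the diets, and 95% of them differed by no more than 0.247 units in size. Rpl37 and Rps27 above that, and Rpl22l1 below it, were the 3 called members beyond this limit. The part of such array differences in the members' calls was not tested. Calls were also thinner among the brighter members, 8 of 31 (25.8%, 5 higher and 3 lower), than among the dimmer ones, 14 of 31 (45.2%, 10 higher and 4 lower). Over all genes 45% were called, and the share among other genes of like level is not given here. The difference between the counts was not tested.

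A gene's probe sets did not always tell the same story. Of the members 20 had more than 1 distinct probe set, and in 11 of these their diet differences had different signs. Of 30 further distinct probe sets 2 were called higher and 10 lower in a fit over all 41345 probe sets, of which 18.9% were called higher and 17.8% lower. For Rps20 the probe set used rose by 0.145 units while its other, dimmer one fell by 0.208 (adjusted p = 0.00292, limma). Rpl9 showed a fall of 0.453 ± 0.0463 units in its dimmer probe set, lower in 36 strains, and -0.00826 ± 0.0418 in the one used. All 3 probe sets of Rps18 fell, by 0.124, 0.173 and 0.392 units.

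The copies of ribosomal protein genes were set beside the genes they resemble. Of 8 like-named pairs listed beforehand 6 were measured. Rpl6 with Rpl6l and Rpl32 with Rpl32l were measured too but were not on that list. None of these genes was called between the diets, and their correlations as pairs were not tested. The difference between the members of a pair was not tested. Rps4l rose and Rps4x differed by 0.0513 ± 0.0277 units (adjusted p = 0.129, limma). Rps27 rose while Rps27l fell, and Rpl39 fell while Rpl39l differed by -0.0454 ± 0.0372 (adjusted p = 0.330, limma). Rpl7 rose by 0.0936 units and Rpl7l1 differed by 0.0808 ± 0.0415 (adjusted p = 0.109, limma). Rpl3 and Rpl3l differed by -0.0764 ± 0.0480 and 0.0017 ± 0.0318 units (adjusted p = 0.196 and 0.972, limma). Across pools, none of the 6 pairs passed a permutation test of its correlation in either diet (12 tests by Pearson's r and 12 by Spearman's rho, 100000 draws, two-sided, Benjamini-Hochberg over each 12). Unadjusted, 1 test by r and 1 by rho had p under 0.05, both for the pair Rpl39 and Rpl39l, with r = 0.338 and rho = 0.286 over 42 chow pools (permutation p = 0.0293 and 0.0664, adjusted 0.351 and 0.266) and r = 0.295 and rho = 0.399 over 39 high fat pools (permutation p = 0.0681 and 0.0127, adjusted 0.408 and 0.152). Without the 2 pools farthest from the median of Rpl39 its r was 0.306 and 0.289. Rpl3 and Rpl3l had r = -0.106 on chow and -0.249 on high fat, with adjusted permutation p of 0.879 and 0.507.

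The second comparison asked which members kept a strain's level across both diets. Differences between strains passed the test for 11 of 62 members (17.7%), against 14.8% of all genes (limma F test). The intraclass correlation of a strain's 2 arrays, which is near 1 where strains differ and diets repeat each other, had a median of 0.230 over the members and 0.155 over all genes. Of the 11, 9 were large subunit genes and 2 small subunit ones, and all but Rpl39 were among the brighter 31 members. The share of strain calls among other genes of like level is not given here, and these splits were not tested.

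Rpl3, which reaches toward the site where peptide bonds form, had the highest intraclass correlation of the family. Its strain means, over both diets, ran from 10.05 in BXD56 to 11.53 in BXD97 with a median of 11.02 and a correlation of 0.765 (adjusted p = 2.52e-08, limma F test). C57BL/6J was near the bottom, at 10.17 on chow and 10.36 on high fat, and DBA/2J stood at 11.12 and 11.23, so the parents' arrays did not overlap. Their difference, DBA/2J minus C57BL/6J, was 0.911 ± 0.212 units (SE, adjusted p = 0.0080, limma). Each parent had 1 array per diet, and the SE of this and other parent differences pools the spread over all strains. Of the 62 members Rpl3 was the only one called between the parents, where 2.36% of all genes were called.

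This strain pattern of Rpl3 rests on 1 of its 3 probe sets. The second, at a mean of 9.05 units, had an intraclass correlation of -0.124 and a strain mean correlated with the first at r = -0.0856 over 39 strains. The third, at 7.15 units, had -0.0907 and r = 0.0808, and its parents differed by -0.898 units (adjusted p = 0.366, limma), the opposite sign. With the mean of the 3 probe sets Rpl3 was no longer called for strain or parents.

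Rpl29, a large subunit protein also described as heparin-binding, ranged from 13.96 in BXD68 through a median of 14.28 to 14.51 in BXD83 (intraclass correlation 0.687, adjusted p = 6.17e-05, limma F test). C57BL/6J had 14.17 on chow and 14.23 on high fat, and DBA/2J had 14.38 and 14.32, a difference of 0.152 ± 0.111 units that was not called (adjusted p = 0.633, limma). Its second, dimmer probe set varied far more and in the other direction. There the strain means ran from 8.51 to 10.73 with an empty stretch between 9.32 and 9.79, 20 strains below it, DBA/2J among them, and 19 above it, C57BL/6J among them. The intraclass correlation was 0.840, the correlation of strain means with the first probe set -0.803 over 39 strains, and the parents differed by -1.10 units (adjusted p = 0.0275, limma). This dimmer probe set also fell by 0.395 ± 0.0645 units on high fat, where the brighter one differed by 0.00741 ± 0.0251. The probe sets of this gene gave opposite strain orders, and the cause was not tested.

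**Figure D3:**
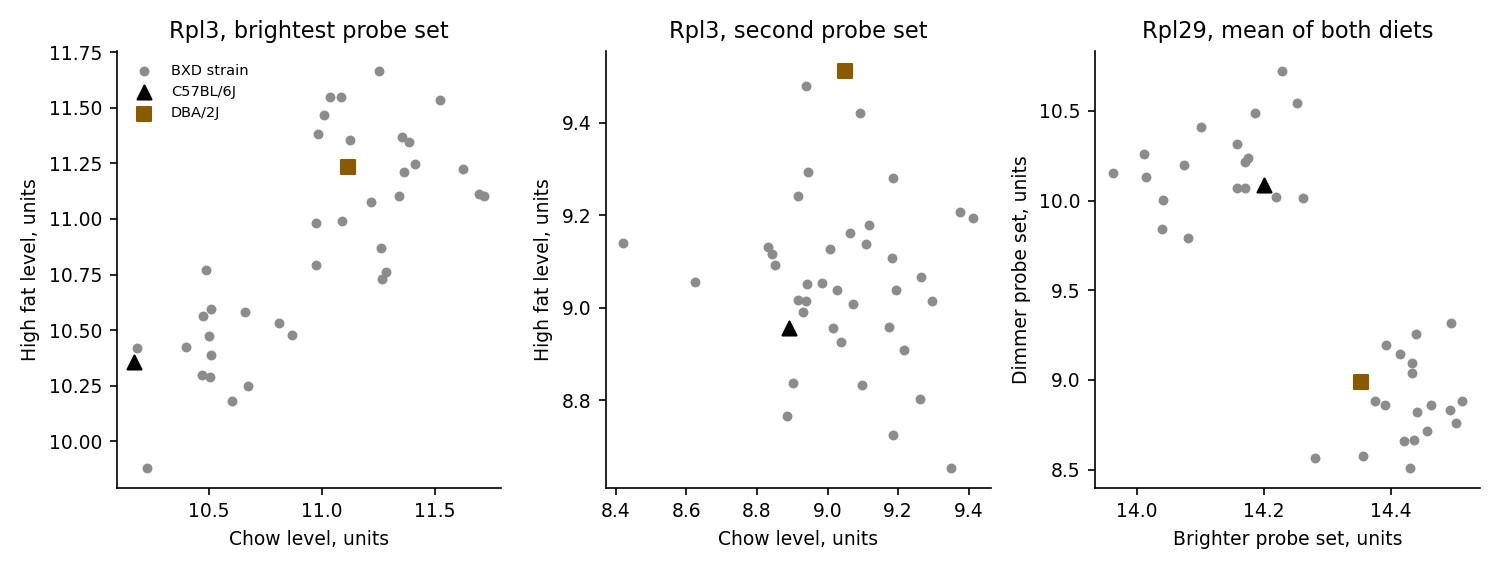
Left and middle: Rpl3 level in units on chow and high fat in each of 39 strains for its brightest and its second probe set. Right: strain means of the brighter and the dimmer Rpl29 probe set. The triangle is C57BL/6J and the square DBA/2J; strains keep their Rpl3 order across diets in the left panel (intraclass correlation 0.765) and not in the middle one (-0.124), and the Rpl29 probe sets run opposite (r = -0.803).

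Rpl3l, the muscle copy of Rpl3, also kept strain levels, from 11.30 in BXD49 through a median of 11.89 to 12.33 in BXD68 (intraclass correlation 0.582, adjusted p = 0.000783, limma F test). BXD49 stood 0.322 units below the next strain. Rpl7a ranged from 12.53 in BXD62 to 13.13 in BXD87 (0.622, adjusted p = 0.00490), and its other probe sets had intraclass correlations of 0.604 and -0.0447. Rpl9 ranged from 10.30 in DBA/2J to 11.42 in BXD73 (0.499, adjusted p = 0.00353), and Rps24 from 10.15 in DBA/2J to 10.84 in BXD73 (0.495, adjusted p = 0.00903). DBA/2J was thus the lowest and BXD73 the highest strain for both. This was not particular to them. BXD73 was the highest strain for further members, such as Rpl35, Rpl38 and Rps6, and DBA/2J the lowest for Rpl23a, Rpl39l and Rps26. For Rpl9, BXD73 stood 0.277 units above the next strain. The other probe set of Rpl9 had an intraclass correlation of -0.0732 and those of Rps24 had 0.371 and 0.0908. Rpl7a, Rpl9 and Rps24 lost their strain calls with the mean of probe sets. Rpl32 (0.527) was highest in BXD97 and Rpl15 (0.490) in BXD75, and Rps3, Rpl39 and Rpl10a had intraclass correlations of 0.473, 0.444 and 0.443. Rpl39 was not called for strain under quantile scaling, in the BXD strains alone or with a variance trend.

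The third question was how far the members rose and fell together across pools. The mean Pearson r over all 1891 pairs of members was 0.0782 ± 0.0172 (jackknife SE over pools) on chow, 0.115 ± 0.0230 on high fat and 0.0713 ± 0.0186 for the diet differences of strains. Over all genes it was 0.00912, 0.00597 and 0.00660, and over 71 mitochondrial ribosomal protein genes 0.172, 0.185 and 0.164. All points share arrays and their scaling, so these values are a description with no p, and the difference between the diets was not tested. Within the large subunit, within the small one and between them the mean r was 0.0641, 0.0950 and 0.0851 on chow, 0.102, 0.123 and 0.124 on high fat and 0.0601, 0.0941 and 0.0741 for the diet differences, and these were not tested against each other.

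The mean correlation was higher among the brighter members, though single members on both sides departed from this. Among the 31 members at or above the family's median level of 10.3 units, a split made after the values were seen, the mean r was 0.163 on chow and 0.285 on high fat, against 0.0280 and 0.0199 over the 3795 genes at least as bright. Among the 31 dimmer members it was 0.0341 and 0.0267. Of all pairs 14.2% had an r above 0.3 on chow and 22% on high fat, and 166 pairs did so on both. By the lower of the chow and high fat r, the most alike pair was Rpl21 and Rps6, at 0.826 on chow and 0.660 on high fat, followed by Rpl4 and Rpl8 at 0.648 and 0.689. Rps6 is the small subunit protein that S6 kinases phosphorylate.

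**Figure D4:**
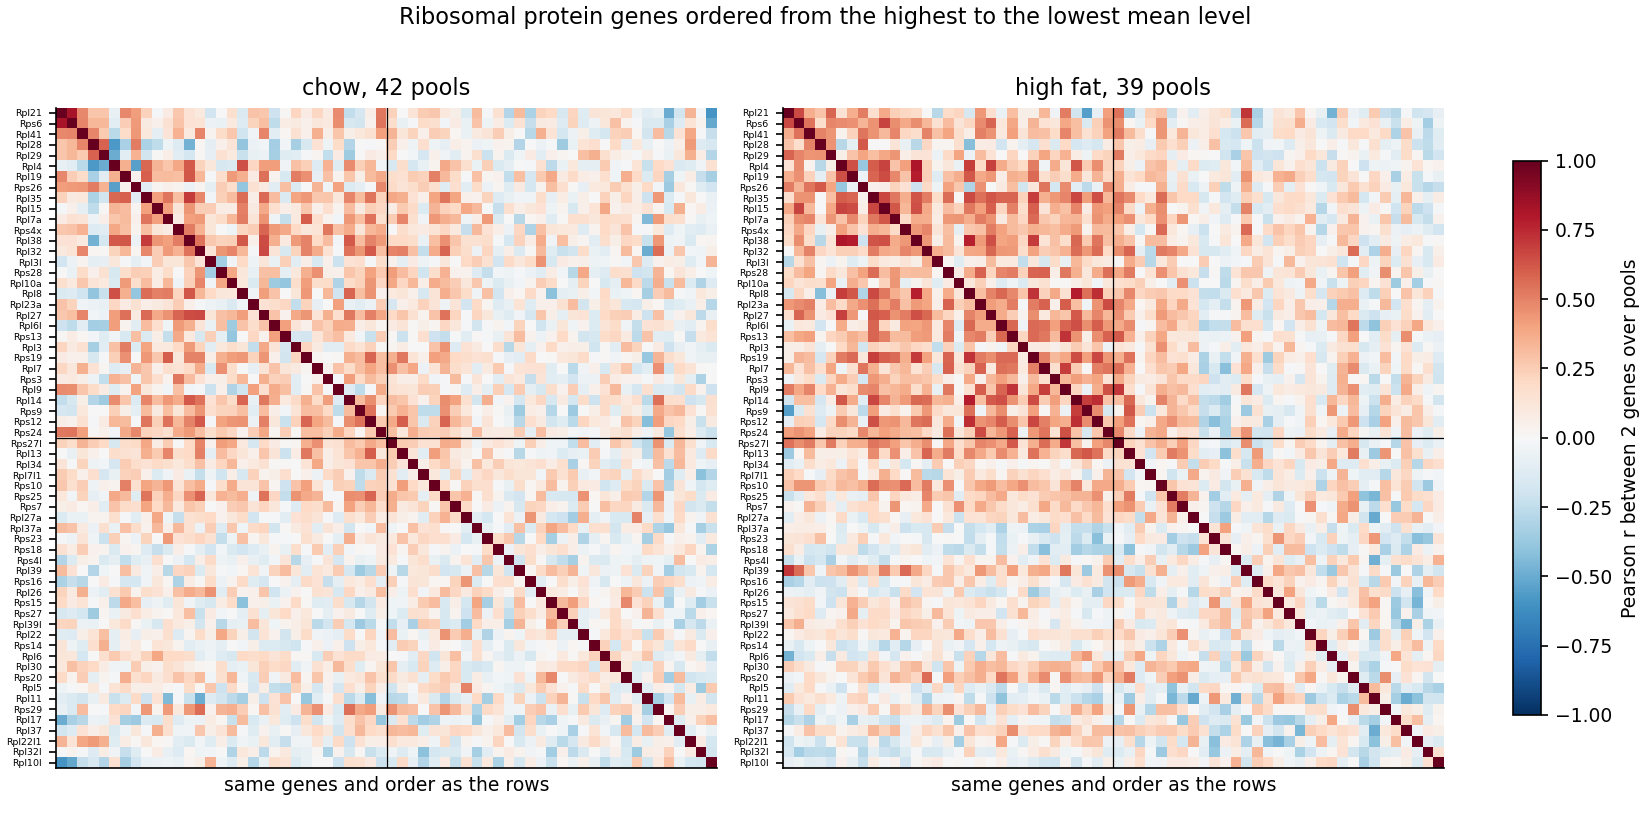
Pearson r between each pair of the 62 genes over 42 chow pools (left) and 39 high fat pools (right), with genes ordered from the highest to the lowest mean level and lines separating the brighter 31 from the dimmer 31. The upper left blocks average 0.163 and 0.285 and the lower right blocks 0.0341 and 0.0267.

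The members closest to the mean of the others were Rpl35 (r = 0.581 on chow and 0.772 on high fat), Rpl38 (0.659 and 0.602), Rpl27 (0.629 and 0.572), Rps19 (0.511 and 0.686) and Rps12 (0.570 and 0.612). Rpl38 is known for its part in translating Hox messenger RNAs and Rps19 for its mutations in Diamond-Blackfan anaemia. The least alike were Rpl17 (-0.258 and -0.257), Rpl11 (-0.167 and -0.232), Rpl32l (-0.259 and -0.131), Rpl10l (-0.207 and 0.00475) and Rpl22l1 (0.0209 and -0.134), and all 5 had mean levels of 5.26 to 7.28 units, below the median gene. Level and likeness did not always go together. Among the dimmer 31 members Rps27l had r = 0.480 and 0.619 with the others and Rps10 0.432 and 0.577. Among the brighter 31 Rpl28 had -0.0809 and 0.0204 and Rpl29 0.0442 and 0.226. These were picked as exceptions after their values were seen. In all, 48 members had an r above 0 on both diets and 3 an r below 0 on both.

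The mean level of the 62 members in a pool ran from 9.99 to 10.25 with a median of 10.11 on chow and from 10.01 to 10.30 with a median of 10.11 on high fat. The ranges overlapped almost wholly, and the mean diet difference was 0.0155 ± 0.0665 units (SD between strains), higher in 22 and lower in 17 of 39 strains. Strains resembled themselves across diets, with r = 0.459 and rho = 0.469 over 39 strains and r = 0.412 without BXD100 and BXD62, the strains farthest from the median on chow. BXD100 was high on both diets, BXD98 and BXD63 were low on both, and BXD73 showed the largest rise (0.160 units) and BXD44 the largest fall (-0.131).

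**Figure D5:**
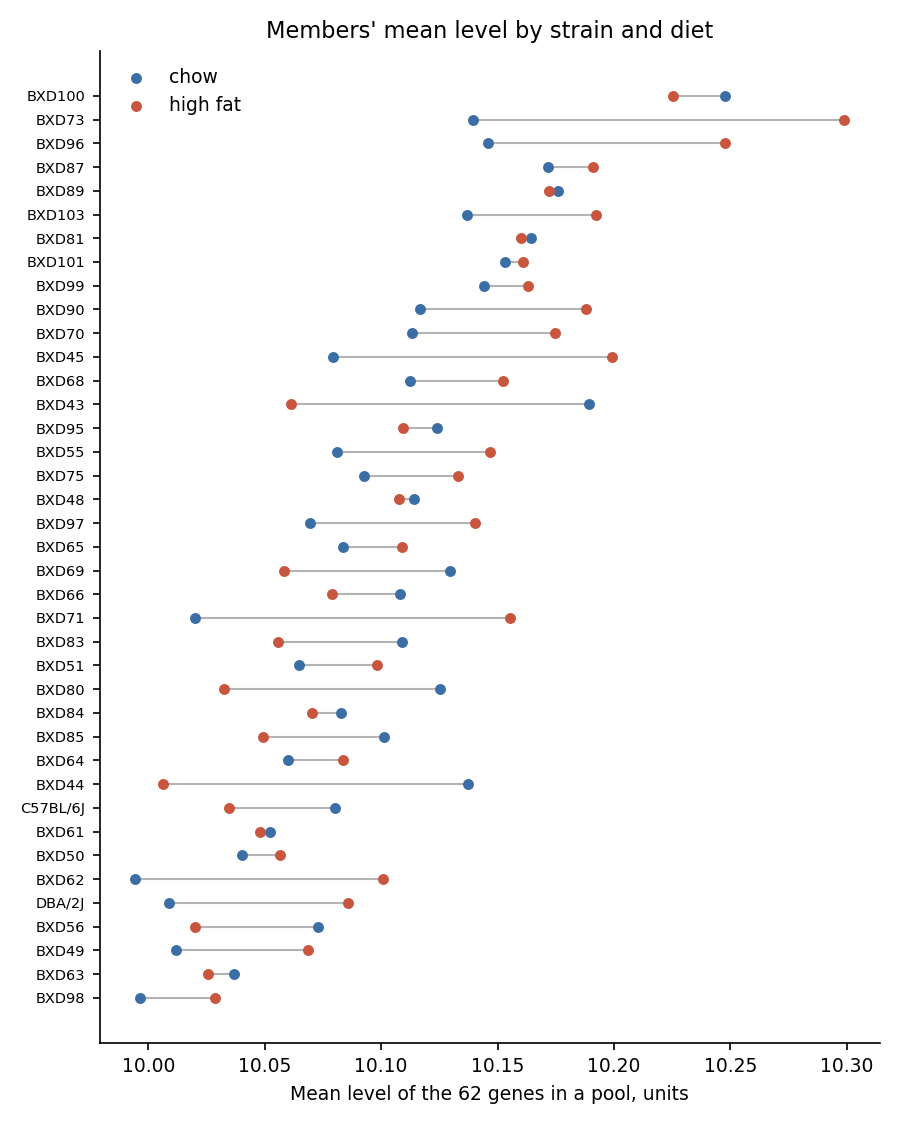
Mean level of the 62 ribosomal protein genes in units in the chow (blue) and high fat (red) pool of each of 39 strains, ordered by the mean of both. High fat lies above chow in 22 strains and below it in 17, and BXD73 and BXD44 show the largest rise and fall.

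Genes outside the family were ranked by likeness to the members' mean, and predicted Gm and Rik genes, small nucleolar RNAs and olfactory receptors were not named. The 10 most alike of the rest were Ptcd3, Fau, Cox7a2, Ndufa4, Smim26, Polr2j, Eef1b2, Cd209a, Nop10 and Nsa2. Their r was 0.565 to 0.697 on chow (42 pools) and 0.552 to 0.829 on high fat (39 pools). Fau encodes a fusion of a ubiquitin-like protein with a small subunit protein, Eef1b2 is an elongation factor, Nop10 and Nsa2 take part in ribosome assembly, and Ptcd3 belongs to the mitochondrial ribosome. Small nucleolar RNAs, which guide the modification of ribosomal RNA and often lie in introns of ribosomal protein genes, made up 18 of the 50 genes most alike. Among all 22180 genes measured, the list of small nucleolar RNAs held 73. The mean of 73 small nucleolar RNAs followed the members' mean with r = 0.70 on chow and 0.61 on high fat.

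Gene span moved with this shared variation. The 100 protein-coding genes most like the members' mean had a median RefSeq span of 6.96 kb and the 100 most opposite ones 92.8 kb, against 18.8 kb over all 18927 and 3.14 kb for the members. In each pool the mean level of the shortest 10% of genes minus that of the longest 10% correlated with the members' mean at r = 0.331 (rho = 0.245) on chow and 0.488 (rho = 0.496) on high fat. Without the 2 pools farthest from the median of that contrast r was 0.330 and 0.575. Its part in the members' correlations was not tested.

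Ribosomal proteins that the naming rule leaves out followed the family across pools. Of 10 listed 6 were measured, and their mean correlated with that of the members at r = 0.687 on chow and 0.758 on high fat. Fau fell by 0.110 ± 0.0256 units (lower in 30 of 39 strains, adjusted p = 0.000472, limma), and Rps3a1 rose by 0.145 ± 0.0477 (higher in 22 strains, adjusted p = 0.0118, limma). Rpsa, a small subunit protein also described as a laminin receptor, differed by 0.0543 units, and the stalk proteins Rplp0, Rplp1 and Rplp2 by 0.00890, 0.0207 and 0.0754, none of them called (adjusted p from 0.279 to 0.873, limma).

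Other genes of the translation machinery were also mixed. Called between the diets were 30.8% of translation factors, 40% of biogenesis genes, 34.8% of regulators and 39.4% of mitochondrial ribosomal protein genes. Each share was below the 45% called over all genes. Of 26 translation factors 6 were higher and 2 lower, with Eef1a2, the elongation factor of adult muscle, rising by 0.317 ± 0.0250 units in 38 of 39 strains (adjusted p = 9.81e-14, limma), Btf3 by 0.110 and Pabpc1, the poly(A)-binding protein, falling by 0.118. Of 35 ribosome biogenesis genes 6 were higher, such as Polr1b of RNA polymerase I (0.135), and 8 lower, such as Bop1 (-0.147) and Polr1c (-0.153). Of 23 regulators 4 were higher and 4 lower, and Mtor (0.160 units, higher in 33 strains), its partner Mlst8 (0.168, higher in 35) and its activator Rheb (0.0938, higher in 31) were the 3 with the smallest adjusted p. Of the 71 mitochondrial ribosomal protein genes 13 were higher and 15 lower, with Mrps12 (-0.273), Mrps30 (-0.246) and Mrpl24 (-0.241) having the smallest adjusted p. The members' mean correlated with that of the translation factors at r = 0.656 on chow and 0.581 on high fat, with that of the mitochondrial list at 0.40 and 0.60, with the biogenesis list at 0.332 and 0.338, and with the regulators at 0.0281 and -0.187.

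Marker lists of cell types had correlations with the members' mean smaller in size than the translation factors, whose diet differences had r = 0.697. The lists differ in number of genes. Some marker lists exceeded in size the biogenesis list, which had r = 0.332 on chow, 0.338 on high fat and 0.327 for the diet differences. The endothelial list had r = -0.40 on chow, -0.35 on high fat and -0.237 for the diet differences, the macrophage list -0.00174, 0.308 and 0.414, and the cardiomyocyte list -0.0477, 0.140 and -0.274. The fibroblast, lymphocyte, atrial and adipocyte lists and the 1 erythroid marker measured had r between -0.183 and 0.144. The marker counts that follow stand beside 23.8% of all genes called higher on high fat and 21.2% called lower. Of 8 macrophage markers 5 rose on high fat, with a summed level of 75.5 to 82.1 units on chow and 75.7 to 83.7 on high fat, and of 8 endothelial markers 2 rose and 1 fell, with sums of 94.0 to 96.9 and 94.5 to 96.5. Of 8 fibroblast markers 4 rose (sums 84.7 to 91.6 and 85.9 to 92.6), and of 10 cardiomyocyte markers 5 fell (144.9 to 148.2 and 144.7 to 148.0). The 4 atrial markers had sums of 37.1 to 57.4 and 35.6 to 57.3. Of 5 adipocyte markers Cidea rose and Adipoq fell, by 0.852 units in 39 of 39 strains, with sums of 45.6 to 54.1 and 45.3 to 50.8. The lowest mean level of a marker was 6.28 units, in the lymphocyte list, where the ERCC control probe sets averaged 5.96. The part of the makeup of cells in the members' differences was not tested.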

How the data were processed

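Affymetrix Expression Console was used on the arrays, per the submitters' processing notes; version, background correction and summary method: not given in the sources used here. The deposited value of each probe set is a score on a log-like scale with unstated base, and each array's 41345 values have a mean of 8 and an SD of 2 (medians 7.62 to 7.75), so no fold is given. Arrays correlated over genes at 0.969 to 0.992. The number of arrays limits the precision.

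The platform's gene list holds 25335 probe sets, of which 23521 have 1 symbol and 1814 several; the latter were not used. For each gene the probe set with the highest mean was taken, with no filter on level. The members and lists were chosen with earlier results of these data known. All 62 members' Entrez identifiers were found in RefSeq (GRCm38.p6) with 0 differing symbols; some listed genes were not measured.

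Diet, strain and parents were tested with limma 3.58.1 (R 4.3.3, lmFit and eBayes) on 78 arrays of 39 strains. The fit had terms for strain and diet, with Benjamini-Hochberg over all genes. The diet and strain tests were also run on simulated data with independent errors. That run cannot show how calls behave where arrays differ as a whole. Strain labels pair the arrays: around the diet means, the 2 arrays of a strain had a median r of 0.248 (over 0.1 in 37 of 39 strains), and arrays of different strains -0.00927. With 1 array per strain and diet, the limma tests use the spread left after the strain and diet terms. For diet, that is how far the diet difference varied between strains. For strain and parents, it is how far a strain's 2 arrays departed from the shared diet difference, pooled over strains. Named members are, among those called, the 8 largest diet rises and falls each, the 8 highest intraclass correlations and up to 6 parent differences. The 5 highest and 5 lowest r with the other members are named as well. So are all measured genes of the listed pairs of copies and of the ribosomal proteins outside the naming rule. Before the 10 genes most like the members' mean were taken, predicted Gm and Rik genes, small nucleolar RNAs and olfactory receptors were passed over. Of each other list up to 3 called genes are named. Further members and probe sets, such as Rpl5, Rps20, Rpl9, the most alike pairs and the remaining called members, were chosen after their values were seen. Alternatives covered the strain term, scaling, probe sets per gene, strains, dim genes and the variance trend.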

Additional observations from a re-analysis of the deposited data

How the results depend on the processing

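The counts of members higher (15) and lower (7) on high fat and different between strains (11) stayed within 1.5 times under quantile scaling, median centring, the BXD strains alone and a variance trend, and the diet counts also without the strain term. With testing limited to genes at or above the median level, 9 members were higher; the genes below it, among them Rpl37 and Rps27, were not tested there. With the mean of a gene's probe sets 13 members were higher and 12 lower, 7 of the strain calls remained (Rpl3, Rpl7a, Rpl9 and Rps24 were lost) and 0 members were called between the parents (limma). A pair of alternatives was chosen after seeing the data: the brighter members alone gave 5 higher and 3 lower, and differences beyond the ERCC limit 2 and 1. Mean pairwise r was 0.163, 0.285 and 0.182 (chow, high fat, diet differences) among brighter members and 0.0341, 0.0267 and 0.0160 among dimmer ones; leaving out each strain in turn, also added later, gave 0.0667 to 0.0812, 0.10 to 0.12 and 0.0616 to 0.0764, and quantile scaling, median centring, mean probe sets, Spearman's rho and the BXD strains alone stayed within the jackknife SE. The median diet difference of the members moved by less than its SD between strains under every alternative. Of 100 refits of named diet differences 1 lost its call (Rpl7a, -0.0216 units, mean of probe sets), and of 24 pair correlations refitted under quantile scaling and median centring none changed its call. Because the arrays are scaled to one mean and SD, a shift of most transcripts cannot be seen, and values of dim probe sets near the controls' level limit what can be said of their genes.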

Other observations

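Genes whose strain means were most like those of Rpl3 and Rpl29 were looked up after those members' strain differences had been seen, over the 39 strains with both diets. For Rpl3 the strongest relation was negative, with Cbx7 (r = -0.861), a Polycomb protein, and with Apobec3 (-0.836), a cytidine deaminase of antiviral defence, which lie 2 and 3 measured genes away on the same chromosome. The relation to Cbx7 was -0.743 on chow and -0.833 on high fat. The most positive were Tlr5 (0.604), Syngr1 (0.580), 3 measured genes away, Ddias (0.544) and Nrbp1 (0.543), and all but Syngr1 lie on other chromosomes. Cbx7 and Apobec3 had intraclass correlations of 0.766 and 0.782. Those of Tlr5, Syngr1, Ddias and Nrbp1 were -0.0278, 0.584, -0.117 and 0.335, so Tlr5 and Ddias did not keep a strain's level across diets.

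For Rpl29, Parp3 (r = -0.838), Wdr82 (-0.807) and Abhd14a (-0.759), which lie 6, 9 and 2 measured genes away, and Mrpl3 (-0.785), 20 genes away, ran opposite, and its neighbour Acy1 ran alike (0.727). Sh3gl2 and Mad2l1, on other chromosomes, ran alike at 0.832 and 0.672. Their intraclass correlations were 0.715 and -0.0267, so Mad2l1 did not keep a strain's level across diets. These correlations with Rpl29 refer to its brighter probe set, whose strain order is the reverse of that of the dimmer one. They are descriptions of genes picked for their likeness, with no p.

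Among the 10 named genes most opposite to the members' mean were Ep300 (r = -0.632 on chow and -0.667 on high fat), Hipk2 (-0.581 and -0.593), Setd5 (-0.565 and -0.623), Srcap (-0.557 and -0.625) and Bmpr2 (-0.518 and -0.706). Pelo, a factor that rescues stalled ribosomes, was also among the 10 most opposite (-0.522 and -0.550).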
